A study of Rattus norvegicus with 10 samples.

Results

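Jchain and 28 unnamed gene models of the rat immunoglobulin-type regions are described here, 29 genes of the 1319 in the table, in whole lungs of wild-type rats and of rats without CMG2. A gene was taken if it was Jchain, if its biotype began with IG_, or if its name began with AABR (a name given to models without a symbol) and it started between 136000000 and 146500000 on chromosome 6 or between 16000000 and 21000000 on chromosome 3. The biotype condition found 0 genes, and each of the 2 windows held 14 models. The table kept only genes to which the authors gave a p-value under 0.05 between the genotypes, and the windows were proposed with those results known. Differences between the genotypes are therefore given as description, and the counts of genes called by each method are printed beside the share of all genes called and support nothing.

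The rats were Sprague Dawley, 8 weeks old, and the groups were WT (5 libraries) and Cmg2-KO (5 libraries), labelled as CMG2-/- in the series text. CMG2 is the product of Antxr2, a membrane receptor for anthrax toxin that also binds basement membrane proteins. The labels name no shared treatment, no sex and no promoter or cell type that would limit the deletion, and the 1319 genes used here did not include Antxr2, so the genotype labels were not checked on the targeted gene. The series text describes more replicates of each genotype than the 5 analysed here. Nothing in the labels says that the 5 libraries of a genotype came from separate litters or batches, and any p-value below measures the spread between these libraries only. The lung markers Sftpb, a surfactant protein of alveolar cells, and Scgb1a1, the secretory protein of club cells, ranged from 42132 to 65237 and from 84205 to 195238 scaled counts over the 10 libraries. A scaled count is the authors' read count of a gene divided by 1 size factor per library, and 1 read was worth 0.869 to 1.11 of them. Reads in the listed genes numbered between 1289524 and 1620198 in the 9 libraries where they were recovered. WT 4 was left out of this by a set cut, because 1 read was worth close to 1 scaled count there (1.01).

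Immunoglobulins are made by B cells and secreted in bulk by plasma cells. Each B cell clone joins its own variable, diversity and joining segments, so the variable segments read in a tissue depend on which clones are present, while constant regions are shared among clones. Jchain encodes the joining chain that links the units of polymeric IgA and IgM and lets them be carried across mucosal epithelia such as that of the airways. In whole lung, fewer cells of a type and less RNA per cell cannot be told apart.

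The names of the 28 AABR models come with no description in the table, and their label rests on position. Genes beside them that do have a description were used to check it. Ighg1, the constant region of heavy chain gamma 1, lies at 139140679 to 139142218 inside the chromosome 6 window. Further transcripts without a symbol, described as holding an immunoglobulin V-set domain, start at 139204791, 140110111, 140178536 and 142128743 in the same window. RGD1565617, described as similar to a light chain variable region and chosen after its values were seen, lies at 19320304 to 19320915 inside the chromosome 3 window. Of the models, 27 were short (282 to 760 bases, median 351) and 1, AABR07065625.1, was 7244 bases long. All 14 models on chromosome 6 were on the minus strand, as were Ighg1 and the V-set transcripts that start at 140110111, 140178536 and 142128743. The V-set transcript that starts at 139204791 was on the plus strand. On chromosome 3, 12 models were on the plus strand and 2 on the minus strand, and RGD1565617 was on the minus strand. Within the 29 genes, 26 were annotated as protein coding and 3 as lincRNA.

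The sequence tables held a promoter for 1 of the 29 genes, Jchain, which is shown because Jchain is the single named gene of the group. The 250 bases before its annotated start in RefSeq's GRCr8, chr14:19822726-19822975 on the plus strand, are printed 5′ to 3′ with the letters ATTTGC in capitals.
Jchain: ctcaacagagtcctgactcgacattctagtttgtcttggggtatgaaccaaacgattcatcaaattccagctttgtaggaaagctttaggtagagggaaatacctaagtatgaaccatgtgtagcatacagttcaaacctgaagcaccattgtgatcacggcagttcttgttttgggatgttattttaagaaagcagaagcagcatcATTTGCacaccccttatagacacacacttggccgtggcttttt
The octamer ATGCAAAT, a motif of immunoglobulin promoters bound by POU-family factors, had 0 matches in these bases on either strand, against 1.56% of 33469 rat promoter windows of the same length. The shorter string ATTTGC, which is part of the reverse complement of the octamer and was chosen after the sequence was seen, occurred once, 43 to 38 bases before the start. On either strand it occurred in 9.67% of the promoter windows. All other coordinates, those of the Jchain gene itself included, are those of the authors' table, whose build is not given in the sources used here.

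Jchain (chromosome 14, 21177237 to 21183542, plus strand) was one of the 2 abundant genes of the group. Its scaled counts were 3428, 2649, 2979, 4279 and 1743 in WT 1 to 5 and 3422, 4102, 4821, 6336 and 4821 in Cmg2-KO 1 to 5. The groups overlapped: WT 4 lay above Cmg2-KO 1 and 2, and WT 5 was the lowest of all libraries. The mean was 3016 ± 939 (SD, n = 5) in WT and 4700.3 ± 1084 (SD, n = 5) in Cmg2-KO, 1.56 times as high, and the difference of means on the log2(scaled count + 1) scale was 0.67 ± 0.23 (SE). Leaving out 1 library at a time gave 0.49 to 0.81.

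AABR07065625.1 (chromosome 6, 138054662 to 138662511, minus strand) was the most abundant of the AABR models in the windows. It had 6885, 5920, 5319, 8509 and 6824 scaled counts in WT 1 to 5 and 8751, 7649, 9719, 13688 and 9042 in Cmg2-KO 1 to 5. Every Cmg2-KO library but Cmg2-KO 2 lay above all WT libraries, and Cmg2-KO 2 lay below WT 4. The mean was 6691 ± 1208 (SD, n = 5) in WT and 9770 ± 2314 (SD, n = 5) in Cmg2-KO, a log2 difference of 0.54 ± 0.16 (SE). Per 1000 bases of model length, Jchain was the higher of the 2, at 6283 (WT) and 9792 (Cmg2-KO) scaled counts, against 924 and 1349 for AABR07065625.1. Cmg2-KO 4 was the highest library for both. The span of AABR07065625.1 holds that of AABR07065643.1 on the same strand. Whether these models share counted bases is not known, and their counts may not be separate.

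**Figure D1:**
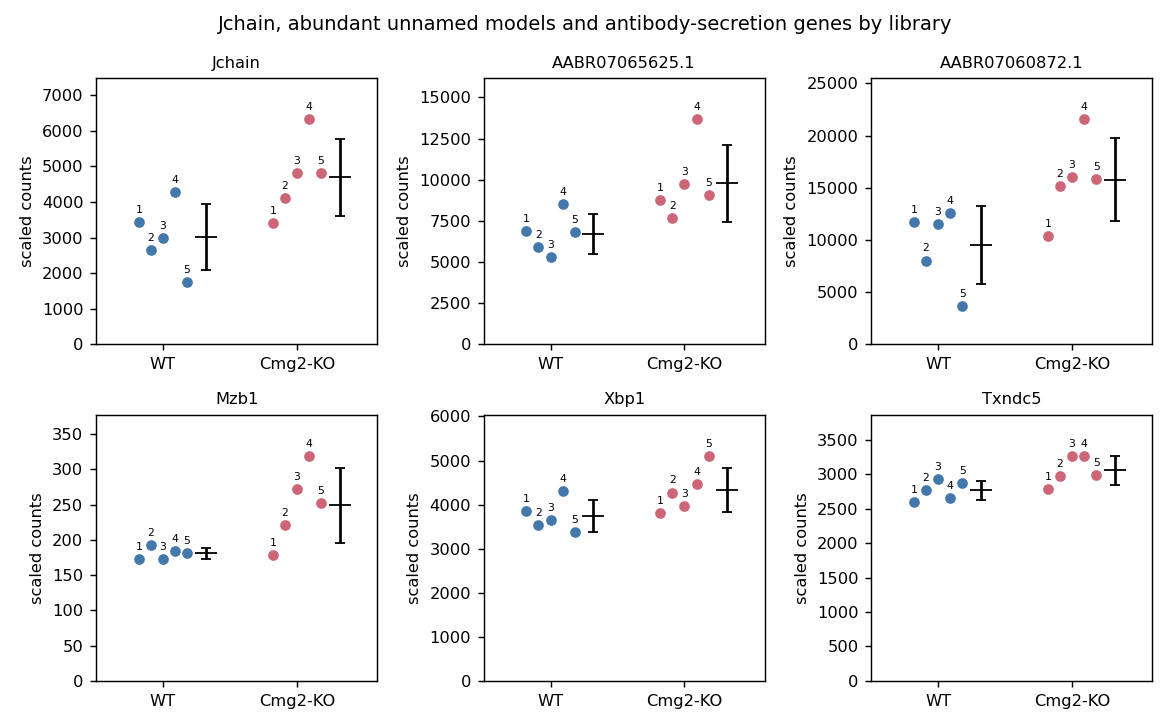
Scaled counts (linear axis from 0) of Jchain, AABR07065625.1, the chromosome 4 model AABR07060872.1 and 3 antibody-secretion genes in each library; points are libraries with their replicate number, and the line and bar are the mean and SD of 5 libraries. In each panel the Cmg2-KO mean lies above the WT mean and the ranges overlap, and Cmg2-KO 4 is the highest library for Jchain, AABR07065625.1, AABR07060872.1 and Mzb1.

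The 27 short models were scarce by comparison. Their means over the 10 libraries ran from 3.16 to 254 scaled counts, and 22 of all 29 genes had a mean of at least 10. Of the 29, 28 passed the filter on low values (above 0.5 scaled counts in at least 5 libraries) and AABR07065651.8 did not. By the limma fit, 22 of the 28 had a log2 difference above 0 and 6 below, where 48.2% of the 1308 fitted genes had one above 0. The median over the 28 was 1.28, against −0.15 over all fitted genes, and the medians of the absolute values were 1.53 and 0.47. The 2 windows were alike in this: 11 of 14 on chromosome 3 and 10 of 14 on chromosome 6 were higher in Cmg2-KO by the authors' deposited table. Of the AABR models elsewhere in the genome, 41 of 97 were higher. These were not alike: in stretches of chromosome 4 (model starts from 98337367 to 103761576) and chromosome 11 (85263536 and 85992696) that also hold V-set transcripts, and that were set after the values were seen, all 7 listed AABR models were higher in Cmg2-KO, against 34 of the other 90. The SD within genotypes was above 1 on the log2 scale for 6 of these 7, from 1.11 to 2.61, as it was for most short models of the 2 windows. Because low genes had to differ widely to enter the table, these figures describe the genes that were kept and say nothing about models in the windows that were not.

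In the authors' deposited table, 3 of the 29 genes passed an adjusted threshold of 0.05 as higher in Cmg2-KO, where 3.11% of the 1319 listed genes did, and 3 as lower, where 2.35% did. These calls were used to propose the group, so nothing is read from the counts. By limma with Benjamini-Hochberg adjustment over the 19894 genes that the authors adjusted over, 0 of the 28 had an adjusted p under 0.05, against 0.229% of fitted genes. At an unadjusted p under 0.05, 17 of the 28 and 1035 of the 1308 fitted genes passed. On whole reads of 9 libraries, edgeR's quasi-likelihood test called 0 of 27 and DESeq2 called 5 of 29. Among all 1319 listed genes, edgeR called 1 and DESeq2 called 49, and nothing is read from the counts in the group. The groups of 5 libraries did not overlap at all for 2 of the 29 in the higher direction (9.25% of listed genes) and for 2 in the lower direction (7.05%).

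AABR07051746.1 (chromosome 3, 20695662 to 20695952, 291 bases) was one of the 2 whose Cmg2-KO libraries all lay above WT. It had 6.09, 1.04, 3.33, 4.04 and 0 scaled counts in WT 1 to 5 and 20.9, 8.79, 30.3, 28.4 and 21.8 in Cmg2-KO 1 to 5. The authors' deposited table gave it an adjusted p of 0.00206. The other was AABR07051532.1 (chromosome 3, 16440424 to 16441030, 375 bases), with 11.2, 4.15, 3.33, 35.4 and 54.7 in WT 1 to 5 and 114, 99.3, 352, 140 and 65.5 in Cmg2-KO 1 to 5. Both lie on the minus strand, as does RGD1565617, and they are the only listed AABR models of the chromosome 3 window that do. Each was also the outermost listed model at its end of the window. WT 4 and WT 5 of AABR07051532.1 were higher than the other WT libraries, and WT 5, at 54.7, lay closest to the lowest Cmg2-KO library, Cmg2-KO 5 at 65.5.

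In the other direction, AABR07065774.1 (chromosome 6, 140805046 to 140805551, 357 bases) had 13.2, 10.4, 5.55, 23.3 and 33.7 scaled counts in WT 1 to 5 and 2.61, 0.879, 0, 0.945 and 1.04 in Cmg2-KO 1 to 5. The last 4 of these are 1 read or none. Its WT mean was 15.7 times the Cmg2-KO mean. AABR07065643.1 (chromosome 6, 138535670 to 138536321, 417 bases) had 7.11, 6.22, 7.77, 1.01 and 9.47 in WT 1 to 5 and 0 in every Cmg2-KO library. Against a floor of 3 reads over the Cmg2-KO group, its level was at least 11-fold lower there. The authors' deposited table gave AABR07065774.1 an adjusted p of 0.00206 and AABR07065643.1 one of 0.0127. WT 4 stood apart at a single read for AABR07065643.1. AABR07065651.8 was at 0 in all Cmg2-KO libraries too, but also in WT 1 and WT 4, and 81.5% of its summed counts came from WT 3 at 27.7.

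A further 3 models passed the adjusted threshold of 0.05 in the authors' deposited table, and in 2 of them a single library held most of the counts. AABR07065883.1 (chromosome 6, 143590014 to 143590448, 351 bases) had 4.06, 16.6, 6.66, 20.2 and 34.7 scaled counts in WT 1 to 5 and 47.8, 1913, 400, 66.2 and 30.1 in Cmg2-KO 1 to 5. Cmg2-KO 2 held 75.3% of the sum, and Cmg2-KO 5 lay below WT 5. The Cmg2-KO mean was 29.9 times the WT mean, while the log2 difference was 3.44 ± 1.07 (SE) and 2.53 without Cmg2-KO 2. AABR07051534.1 (chromosome 3, 16571602 to 16572182, 348 bases) had 11.2, 72.6, 24.4, 405 and 11.6 in WT 1 to 5 and 8.69, 13.2, 2.09, 5.67 and 3.12 in Cmg2-KO 1 to 5. WT 4 held 72.7% of that sum, the log2 difference went from −2.66 to −1.83 without it, and Cmg2-KO 2 lay above WT 1 and WT 5. AABR07051564.1 (chromosome 3, 17139670 to 17139987, 318 bases) was more even, with 43.7, 37.3, 14.4, 28.3 and 24.2 in WT 1 to 5 and 97.3, 31.6, 71.0, 290.2 and 113 in Cmg2-KO 1 to 5. Only Cmg2-KO 2 fell within the WT range there.

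**Figure D2:**
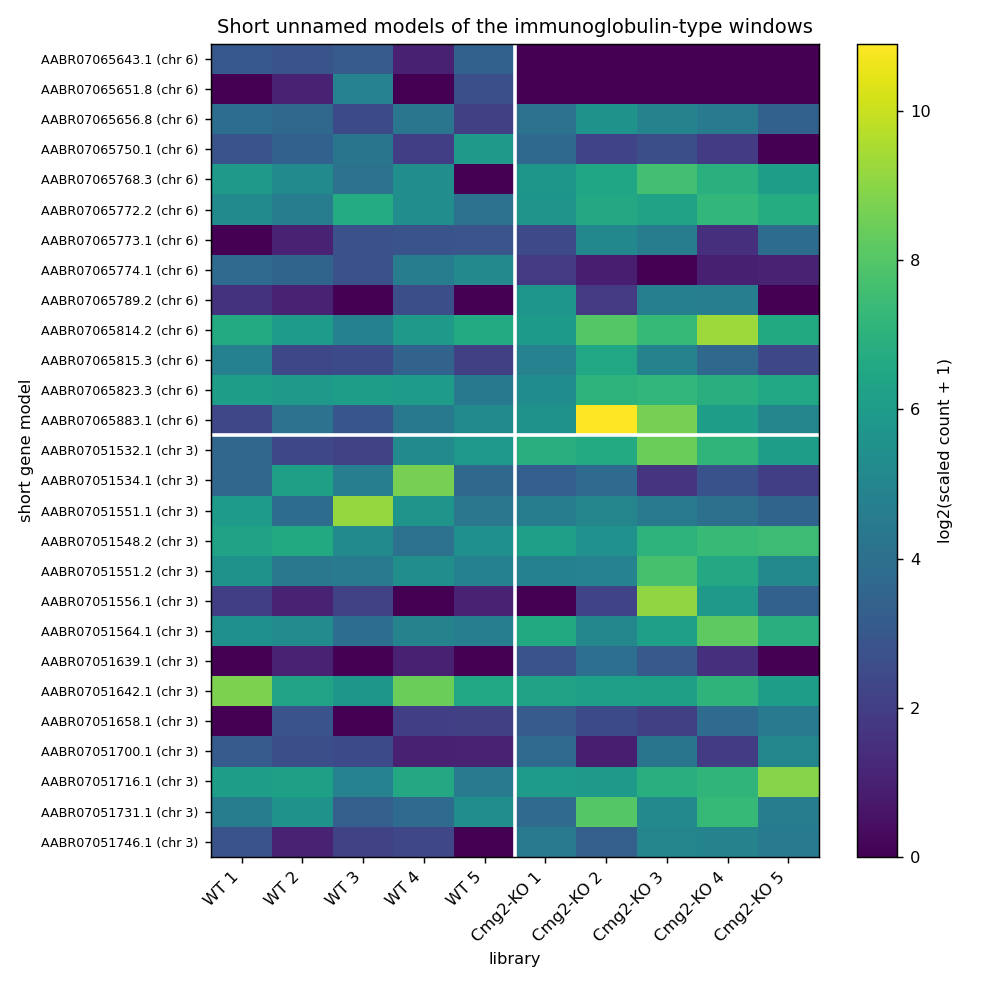
Level of each of the 27 short models (rows, with their chromosome) in each library (columns), as log2(scaled count + 1); white lines part the genotypes and the 2 windows. Single bright cells, such as AABR07065883.1 in Cmg2-KO 2 (1913 scaled counts) and AABR07051551.1 in WT 3 (572), stand in rows that are otherwise low, and the bright cells fall in different rows in different libraries.

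Single libraries held most of the counts in other models as well. AABR07051556.1 had 552 scaled counts in Cmg2-KO 3, 87.6% of its sum, 56.7 in Cmg2-KO 4 and at most 9.36 in each of the other libraries, and its log2 difference went from 2.86 to 1.61 without Cmg2-KO 3. AABR07051551.1 had 572 in WT 3, 70.2% of its sum, and 10.4 to 62.0 elsewhere, and its log2 difference went from −1.48 to −0.64 without WT 3. Its span holds those of AABR07051548.2 and AABR07051551.2 on the same strand, so the counts of these 3 may not be separate, although their highest libraries were WT 3, Cmg2-KO 5 and Cmg2-KO 3. In 5 of the 27 short models more than 50% of the summed counts came from 1 library, against 35 of all 1319 genes.

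The short models varied more between libraries of one genotype than other listed genes of like level. The SD of log2(scaled count + 1) within genotypes had a median of 1.16 over the 27 models, against 0.44 over the 644 other listed genes with means in the same range. It was above 1 for 17 of the 27 (63.0%), for 85 of those 644 (13.2%) and for 111 of all 1319 (8.42%). Jchain and AABR07065625.1, at high levels, had SDs of 0.41 and 0.29. The spread within genotypes also enters the authors' p-values, so a listed gene with a wide spread had to show a wide difference, and the comparison is a description of listed genes only.

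**Figure D3:**
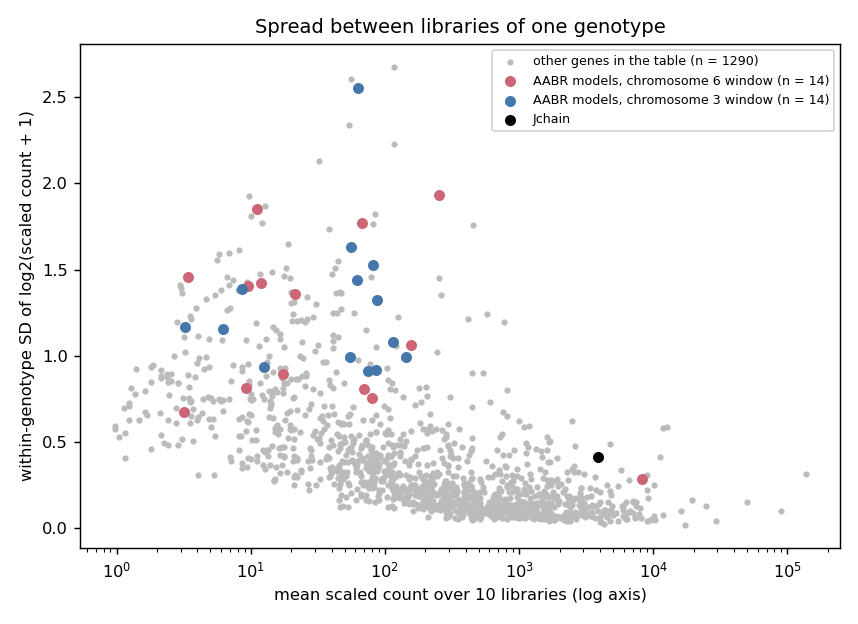
Within-genotype SD of log2(scaled count + 1) against the mean scaled count over 10 libraries (log axis) for every gene in the table, with the models of the chromosome 6 window, those of the chromosome 3 window and Jchain marked. The short models lie mostly in the upper part of the cloud at their level, with a median SD of 1.16 against 0.44 for other genes of that range.

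Which model was highest differed between libraries. In WT 1 the largest of the 27 was AABR07051642.1 (38.4% of the library's summed short models), in WT 2 AABR07051548.2 (13.7%), in WT 3 AABR07051551.1 (53.8%), in WT 4 AABR07051534.1 (30.4%) and in WT 5 AABR07065814.2 (15.9%). In Cmg2-KO 1 to 5 it was AABR07051532.1 (12.6%), AABR07065883.1 (57.5%), AABR07051556.1 (20.4%), AABR07065814.2 (26.4%) and AABR07051716.1 (32.8%). AABR07065814.2 was thus the one model to lead in 2 libraries. The share of the leading model was 30.4% ± 16.6 (SD, n = 5) in WT and 29.9% ± 17.1 (SD, n = 5) in Cmg2-KO, and the number of short models with any count was 24.4 ± 1.67 and 24 ± 1.22. Counted the other way, 20 of the 27 models had their highest value in a Cmg2-KO library and 7 in a WT library. Of the 20, 6 peaked in Cmg2-KO 2 and 6 in Cmg2-KO 3, and 1 in Cmg2-KO 1.

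Summed over the 27 short models, the libraries held 1124, 702, 1063, 1336 and 629 scaled counts in WT 1 to 5 and 906, 3329, 2711, 2383 and 1481 in Cmg2-KO 1 to 5. Cmg2-KO 1 lay within the WT range and the other Cmg2-KO libraries above it. The mean sum was 971 ± 298 (SD, n = 5) in WT and 2162 ± 969 (SD, n = 5) in Cmg2-KO, and without AABR07065883.1 it was 954 ± 304 and 1671 ± 632. On chromosome 6 the sum of 13 short models was even in WT, 243 to 335, and wide in Cmg2-KO, 365 to 2668, with no overlap. Without AABR07065883.1 the ranges of the other 12 overlapped, at 226 to 331 and 317 to 1074. On chromosome 3 the sum of 14 was 339 to 1046 in WT and 541 to 1620 in Cmg2-KO, and the ranges overlapped. Sums inherit the choice of listed genes, which were kept for a difference in either direction, and are a description. Most of the short models among them were higher in Cmg2-KO.

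**Figure D4:**
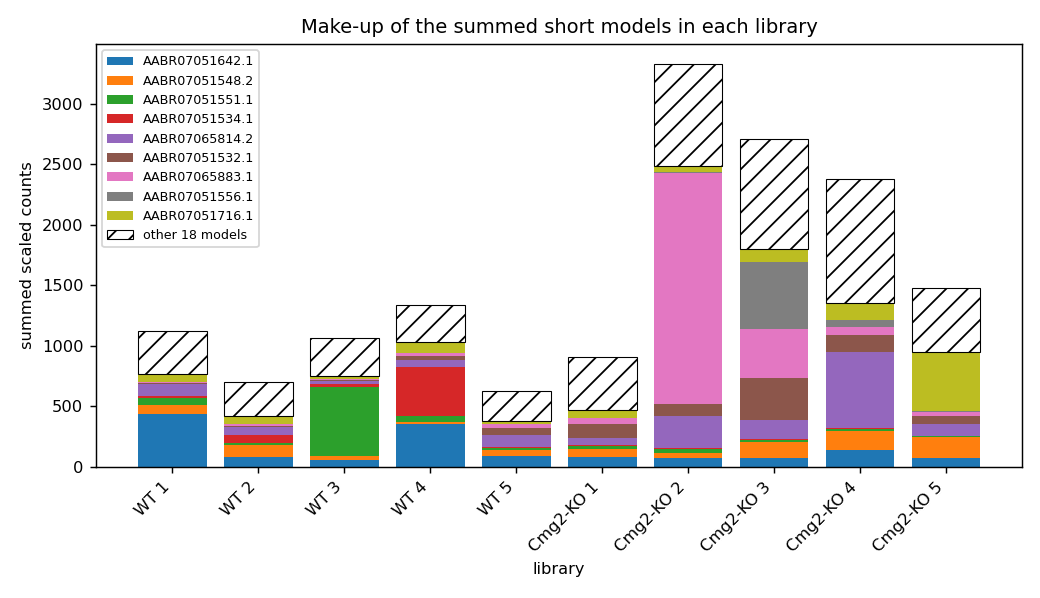
Summed scaled counts of the 27 short models in each library (bars from 0), divided into the 9 models that were highest in at least 1 library and the other 18. The total runs from 629 in WT 5 to 3329 in Cmg2-KO 2, and a different model takes the largest piece in most libraries.

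The remaining models had wide spreads. On chromosome 6, AABR07065768.3, AABR07065772.2 and AABR07065814.2 had mean scaled counts of 30.0, 43.6 and 70.0 in WT and 105, 95.2 and 242 in Cmg2-KO, with log2 differences of 2.46 ± 0.98, 1.31 ± 0.46 and 1.44 ± 0.59 (SE). Without Cmg2-KO 4, which was at 629, the Cmg2-KO mean of AABR07065814.2 was 145. AABR07065768.3 was at 0 in WT 5 and at 15.5 to 56.9 in the other WT libraries, and its log2 difference was 1.44 without WT 5. AABR07065823.3 was even in WT at 57.0 to 68.1 except for 19.98 in WT 5, and had 38.2 to 147 in Cmg2-KO. AABR07065656.8, AABR07065773.1, AABR07065789.2 and AABR07065815.3 had log2 differences of 1.21 to 2.35 at means of 1.63 to 10.3 in WT. AABR07065750.1 was lower in Cmg2-KO, at 0 to 12.2 against 3.03 to 58.9, by −1.57 ± 0.81 (SE).

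On chromosome 3, AABR07051548.2, AABR07051551.2, AABR07051716.1 and AABR07051731.1 had log2 differences of 0.91 to 1.31. AABR07051716.1 was at 485 scaled counts in Cmg2-KO 5, without which its log2 difference was 0.82, and its other Cmg2-KO libraries, at 56.2 to 141, spanned the top of the WT range of 22.1 to 95.1. The scarce models AABR07051639.1, AABR07051658.1 and AABR07051700.1 had at most 31.2 in any library, and log2 differences of 1.87, 1.80 and 1.12. AABR07051700.1 was the listed model closest to the limit of entry, with an unadjusted p of 0.0489 in the authors' deposited table. The lincRNA AABR07051642.1 ran the other way, with 432 in WT 1 and 354 in WT 4 but 53.3 to 92.6 in the other WT libraries and 68.6 to 134 in Cmg2-KO.

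The listed genes nearest to each positional limit of the windows, on either side of it, were protein-coding genes with symbols or unnamed models. On chromosome 6 Exoc3l4 lay just outside and Mark3 just inside the start, and RGD1562420 just inside and Macc1 just outside the end. On chromosome 3 Traf1 lay outside the start and AABR07051787.1 outside the end.

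Whether the genes varied together from rat to rat was tested on the deviations of each library from its genotype's mean on the log2 scale. The group was not chosen by how genes varied together, but the size of these deviations entered the authors' p-values that chose the listed genes. Over 10 libraries and 406 pairs among the 29 genes, Pearson's r averaged 0.03 and ran from −0.88 to 0.85, and 218 pairs were positive. By exact two-sided permutation within genotypes (14400 permutations), 28 pairs had an unadjusted p under 0.05 with Pearson's r. A Benjamini-Hochberg adjusted p under 0.05 was reached by 0 pairs, with Pearson's r or Spearman's rho. AABR07065643.1 and AABR07065651.8 were at 0 in all Cmg2-KO libraries, so only the order of the WT libraries changes their r. The smallest p open to their pairs is therefore larger, and nothing is read from the 0 for them. Among the 17 genes with a mean of at least 50, the average r was 0.16.

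Jchain had a positive r with 17 of the 27 short models, from −0.77 to 0.78, with a median of 0.20 beside 0.07 over all 1318 other listed genes. With AABR07065625.1 its r was 0.57 (exact permutation p = 0.0958) and rho 0.65 (exact permutation p = 0.0638), and r was 0.74 without WT 4 and WT 5, the 2 libraries farthest from the median of Jchain. Of the 1318 other genes, 148 had an r with Jchain at least as high as that. The highest r with Jchain among all listed genes was that of AABR07060872.1, an unnamed model on chromosome 4 (98337367 to 98523473, plus strand) that lies outside both windows and is named after its values were seen. Its r was 0.94 (exact permutation p = 6.94e-05, the smallest that the permutations can give; adjusted over 1318 genes 0.0915) and rho 0.95 (exact permutation p = 0.000278, adjusted 0.32), and r stayed at 0.91 without WT 4 and WT 5. Across 1318 genes, 0 had an adjusted p under 0.05 and 90 an unadjusted one. A gene that stands alone at the smallest p the permutations can give is adjusted to 0.0915. No gene could therefore pass alone, and nothing is read from the 0.

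AABR07060872.1 had 11701, 8021, 11558, 12585 and 3664 scaled counts in WT 1 to 5 and 10353, 15135, 16006, 21584 and 15836 in Cmg2-KO 1 to 5. The lowest library was WT 5 and the highest Cmg2-KO 4, as for Jchain. Among named genes whose mean reached 10 in either genotype, the 6 most like Jchain by the same r were Efcab6 (0.94), Chrdl1 (0.91), Sncg (0.89), Lrrc51 (0.84), Ikzf4 (0.84) and Zfp185 (0.83), of 955 such genes over 10 libraries. Shisa3, at 0.88, fell under that minimum, with a mean of 7.77. The adjusted p was above 0.05 for all of these, under the same limit set by the number of permutations.

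**Figure D5:**
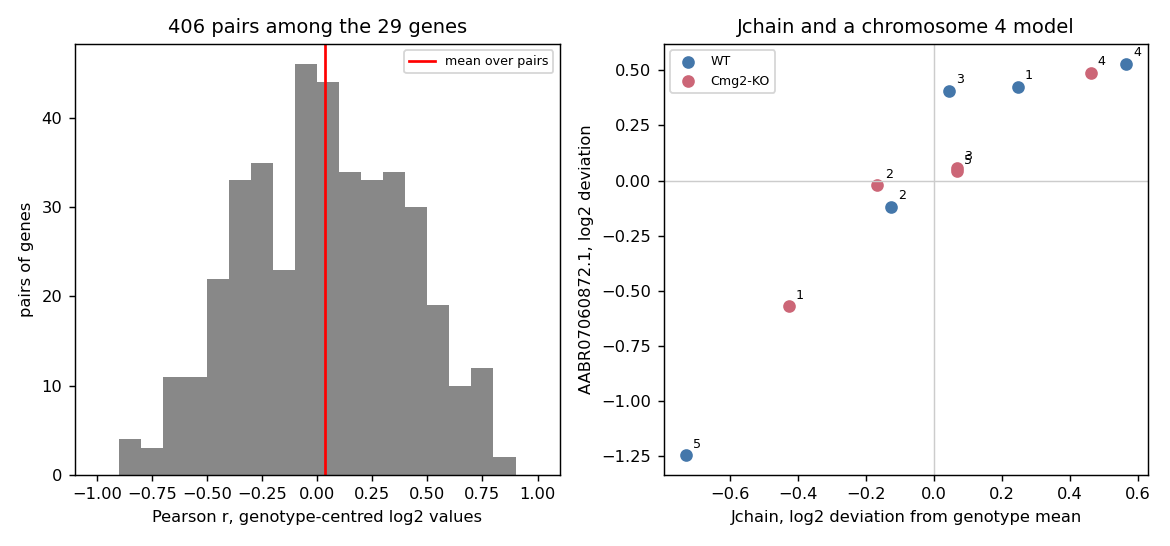
Left, Pearson's r of genotype-centred log2 values for the 406 pairs among the 29 genes, with their mean of 0.03 as a red line; right, deviation of AABR07060872.1 from its genotype mean against that of Jchain (log2), a point per library with its replicate number. The pairs spread on both sides of 0, while the points at right lie close to a rising line (r = 0.94), with WT 5 lowest on both axes.

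Other genes of antibody secretion were taken from a list of 25 plasma cell genes, of which 4 were in the table, Jchain included, all 4 higher in Cmg2-KO and 0 past the adjusted threshold of 0.05 by limma or in the authors' deposited table. Mzb1, an endoplasmic reticulum protein that helps assemble immunoglobulins, averaged 181 ± 8.39 scaled counts over the WT libraries and 249 ± 52.9 over the Cmg2-KO libraries (SD, n = 5 each). Its Cmg2-KO 1 value, 179, lay within the WT range of 173 to 193, and the other Cmg2-KO libraries, at 221 to 320, lay above it. Xbp1, the transcription factor of the secretory programme, which most secretory cells also express, had 3750 ± 363 and 4329 ± 505 (SD, n = 5 each). Txndc5, a disulfide isomerase, had 2766 ± 142 and 3057 ± 208 (SD, n = 5 each). Of the 3, Xbp1 had the highest r with Jchain, 0.71 (exact permutation p = 0.0265, adjusted over 10 pairs 0.172), and 0.54 without the 2 farthest libraries. Mzb1 had 0.52 (exact permutation p = 0.0531, adjusted 0.177), and Txndc5 had 0.06 (exact permutation p = 0.868, adjusted 0.868).

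No gene of 23 B cell genes, 20 genes of mucosal IgA transport and plasma cell homing or 12 Fc receptor genes was in the table under the symbol searched for. Such a gene may have had an authors' p not under 0.05, may not have been tested, or may be listed under another name. Of 15 lymphoid follicle genes, Cxcl13, the chemokine that draws B cells into follicles, was listed, with a WT mean of 63.8 ± 22.6 and a Cmg2-KO mean of 35.0 ± 19.6 (SD, n = 5 each), with overlapping ranges. Of the genes whose description names an immunoglobulin but which the rule did not take, there were 15. Of these, Ighg1 and the V-set transcripts below, other than the most abundant one, are described after their values were seen. The heavy chain gene Ighg1 averaged 6.25 ± 3.40 over the WT libraries and 13.5 ± 4.12 over the Cmg2-KO libraries (SD, n = 5 each), in scaled counts. Among the V-set transcripts of the chromosome 6 window, the directions were mixed. Those that start at 140110111 and 140178536 were higher in Cmg2-KO, at 15.7 ± 6.98 and 47.6 ± 34.4, and at 15.6 ± 15.6 and 61.2 ± 41.1 (WT and Cmg2-KO, SD, n = 5 each). The one that starts at 142128743 was lower, at 39.6 ± 14.03 and 7.66 ± 6.28, and the one that starts at 139204791 was at 0 in all Cmg2-KO libraries and in WT 1 and WT 4. A V-set transcript on chromosome 11 (starting at 85590221) had 2.46 ± 2.65 and 11.4 ± 9.50, and one on chromosome 4 (starting at 69444027) had 35.1 ± 2.61 and 20.1 ± 8.81. By mean level, the 6 most abundant of the 15 were Tie1, Igsf10, Lilrb3a, Igsf3, a V-set transcript on chromosome 4 (starting at 102953252) and Lilrb2. The V-set transcript had 115 ± 63.5 in WT and 244 ± 134 in Cmg2-KO. The other 5 hold immunoglobulin domains and are not antibodies: the endothelial receptor Tie1 had 6477 ± 639 and 5462 ± 401, Igsf10 709 ± 222 and 971 ± 256, and Igsf3 191 ± 16.8 and 238 ± 18.6 (SD, n = 5 each). The leukocyte receptors Lilrb3a and Lilrb2 had 167 ± 78.8 and 282 ± 82.7, and 60.6 ± 25.4 and 123 ± 33.9.

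Markers of other cells were few among the listed genes. None of 15 T cell, 8 neutrophil, 9 mast cell and eosinophil, 8 erythroid or 6 thymus genes was listed under the symbol searched for. Of 8 natural killer genes Klre1 was listed, at 7.08 to 55.5 in WT and 35.9 to 73.9 in Cmg2-KO, and of 14 macrophage and monocyte genes Vcan, at 186 to 558 and 179 to 261. Of 11 lung epithelium genes 2 were listed, Sftpb and Scgb1a1, and their summed level was 196355 to 240903 in WT and 126338 to 218681 in Cmg2-KO. The part of these differences in those of the immunoglobulin-type genes was not tested.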

How the data were processed

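Lung RNA of 5 WT and 5 Cmg2-KO rats was made into libraries with a NEBNext Ultra kit after Trizol extraction, per the labels' protocols; the kit name does not state that strand was kept. The submitters' processing notes name HISAT2 2.0.5 (an aligner) and featureCounts 1.5.0-p3 (a read counter); the sources used here give no build or annotation. The deposited library columns hold a signal, read counts divided by 1 size factor per library, understood from the values (100% were whole multiples of 1 read within 0.02 reads). Per the file headers, the authors also deposited a log2 fold change, the fold itself (a ratio), p-values and group means of the signal; only genes with p under 0.05 are listed, so depth per library is unknown. Adjusted p-values in that table can be recomputed from its p-values by the Benjamini-Hochberg method with 19894 genes, 6 listed genes excepted.

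The members and gene lists were chosen with earlier results of these data known. Genotype differences (Cmg2-KO minus WT) were fitted to log2(scaled count + 1) with limma 3.58.1 (trend, robust) in R 4.3.3 for the 1308 genes above 0.5 in at least 5 libraries, which understates the change of low genes; p-values were adjusted over 19894 genes. The variances were estimated from genes selected on this contrast. edgeR 4.0.16 and DESeq2 1.42.0 were alternatives on recovered whole reads of 9 libraries (WT 4, where 1 read is worth close to 1, was left out). The fit was tested on simulated data that gave every gene the same spread beyond counting error and changed no scarce gene. That test therefore does not cover the scarce and widely spread short models. Correlations used exact permutation in Python 3.11.15. Named genes were all members, listed genes of each gene list, the 6 symbols most correlated with Jchain, neighbours of the window limits, and up to 6 other genes described as immunoglobulin by mean level. Other settings were other pseudocounts, filters, scaling, a replicate block and leaving out each library.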

Additional observations from a re-analysis of the deposited data

Results flagged for a closer look

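Among 72 groups of 5 libraries examined for 37 genes, 4 held a library that stood apart from the other 4. On the log2(scaled count + 1) scale, its gap to the nearest was more than 0.71 of the group's range. Chance gives about 1 in 20, or 3.6 groups. Gaps between the scaled counts themselves, which are printed below, were not examined. The single libraries described above as holding most of a model's counts did not pass this limit on the log2 scale. AABR07065643.1 was at 1.01 scaled counts in WT 4, a single read, and at 6.22 to 9.47 in the other WT libraries. AABR07065823.3 was at 19.98 in WT 5 and at 57.0 to 68.1 in the others. The lincRNA AABR07051642.1 was at 134 in Cmg2-KO 4 and at 68.6 to 76.5 in the others. Scgb1a1, the club cell protein, was at 195238 in WT 1 and at 143906 to 152709 in the others.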

How the results depend on the processing

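The direction of each fitted gene's difference was the same in all 520 values recomputed under 19 alternatives, and 12 of these moved by more than the spread between libraries. In every alternative but 1, 22 of the fitted genes were higher in Cmg2-KO (18 of 22 with a mean of at least 10); this count was added after seeing the data. The median log2 difference of 1.28 became 1.70 with edgeR and lay between 1.14 and 1.43 when each library was left out in turn. The 3 of 1308 fitted genes called by limma became 257 of 1308 when p-values were adjusted over the table alone, and 1 to 6 when a library was left out. Among the 1319 listed genes, 1 was called with edgeR and 49 with DESeq2. In the group, the 0 of 28 genes called became 5 of 29 with DESeq2 and 7 of 28 with adjustment over the table alone. The count in the group was 0 without any 1 library. Nothing is read from these counts. With the replicate block 0 listed genes were called and the mean correlation of 0.034 became 0.025. Same-numbered libraries had correlations of deviations of −0.016 to 0.087, and differently numbered ones had −0.145 to 0.074. The highest was thus same-numbered, and these values do not decide whether the numbers are pairs. The labels name no pairing, and the numbers were not taken as pairs. The mean correlation was 0.16 without the 12 genes under a mean of 50, and 0.026 to 0.051 when a library was left out. The causes were not tested. Depth limits the scarce models, where differences rest on single reads, and counting error is not separated from the spread between rats.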
